A study of Mus musculus with 51 samples.

Results

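The clustered protocadherins were followed in RNA-seq of mouse embryonic stem cells (mESCs) kept in 2i + LIF, a culture medium with kinase inhibitors and the cytokine LIF that keeps them pluripotent. The members were the rows of the gene count table that lie on chromosome 18 and whose names begin with Pcdha, Pcdhb or Pcdhg. There were 57 such rows among 35591 genes, 14 in the alpha, 22 in the beta and 21 in the gamma cluster. They lie on the plus strand of GRCm38 chromosome 18 between positions 36930184 and 37841873. All of the mESC lines were male and of the C57BL/6/Cast F1 strain, and each came from its own blastocyst. The 3 control lines were Smchd1[fl/+] (wt). The 3 maternally deleted lines were Smchd1[del/+] (mat del), from oocytes in which the Zp3-Cre transgene, active in growing oocytes, had removed Smchd1. A mat del line therefore came from an oocyte in which the gene had been deleted and carried 1 intact, paternal allele, so maternal loss and heterozygosity cannot be told apart in this comparison. The series also holds 45 libraries of a differentiation time course, which enter no comparison of the genotypes here.

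Clustered protocadherins are cell-surface adhesion proteins of the cadherin superfamily that are best known from neurons, where each cell uses its own combination of them to tell its own branches from those of its neighbours. In the alpha and gamma clusters every gene has a large first exon with its own promoter, which is spliced to a short set of constant exons at the 3′ end of the cluster. Beta genes have no such constant exons. Promoter choice depends on CTCF, cohesin and DNA methylation, and SMCHD1 is an atypical member of the SMC protein family that takes part in silencing the X chromosome and some clustered autosomal genes.

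In these cells the 3 clusters stood at very different levels. Gamma rows had between 1238 and 6786 counts in a line, alpha rows between 6 and 46, and the 22 beta rows had 20 counts in all 6 lines together. Between wt and mat del, none of the 35 members with enough counts to be tested passed an adjusted p of 0.05 (edgeR's quasi-likelihood test), against 0% of the 17696 genes tested. None had an unadjusted p under 0.05 either, against 2.24% of all genes tested (397 genes). DESeq2 and edgeR's exact test also called 0 members, at an adjusted or an unadjusted p of 0.05. Over all genes DESeq2 called 0 and edgeR's exact test 2 at the adjusted threshold.

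Library totals ranged from 27526359 to 126716460 counts. Levels are given as CPM, counts scaled to 1000000 per library with TMM scaling, so that 1 count stood for 0.00768 to 0.036 CPM. Smchd1 itself was at 106.9, 123.8 and 119.3 CPM in the wt lines and at 63.7, 72.0 and 90.6 CPM in the mat del lines. Its 3 mat del lines all lay below the wt lines, with a log2 fold change of −0.63 ± 0.14 (SE), an unadjusted p of 0.00231 and an adjusted p of 0.992. The 10 pluripotency markers examined all had counts and summed to 5188 to 6271 CPM. Of 10 markers of neurons and neural progenitors, 1 (Dcx) had no count in any line, and the sum was 76.3 to 97.3 CPM in wt and 61.4 to 87.2 CPM in mat del lines. That sum came mostly from Tubb3, at 29.3 to 57.2 CPM, and Nefl, at 17.4 to 29.6 CPM. Lines wt 3 and mat del 3 stood apart from the other 4 lines, with correlations of log levels of 0.982 to 0.9895 to any other line, against 0.996 or more among those 4.

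The structure of the clusters limits what a count of an alpha or gamma row can show. In the GENCODE M21 annotation of GRCm38, which gives all 57 rows the same start and end as the count table, 2860 exon bases are common to every alpha row. They make up 38.0% to 54.9% of a row's exon bases (median 53.4%). In the gamma cluster 2116 exon bases are common to every row, 27.7% to 45.4% of a row's exons (median 43.3%). The bases found in a single member had a median of 2494 in alpha and 2637 in gamma rows. Of the beta rows, only Pcdhb21 and Pcdhb22 share exon bases with each other, 455 in number.

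**Figure D1:**
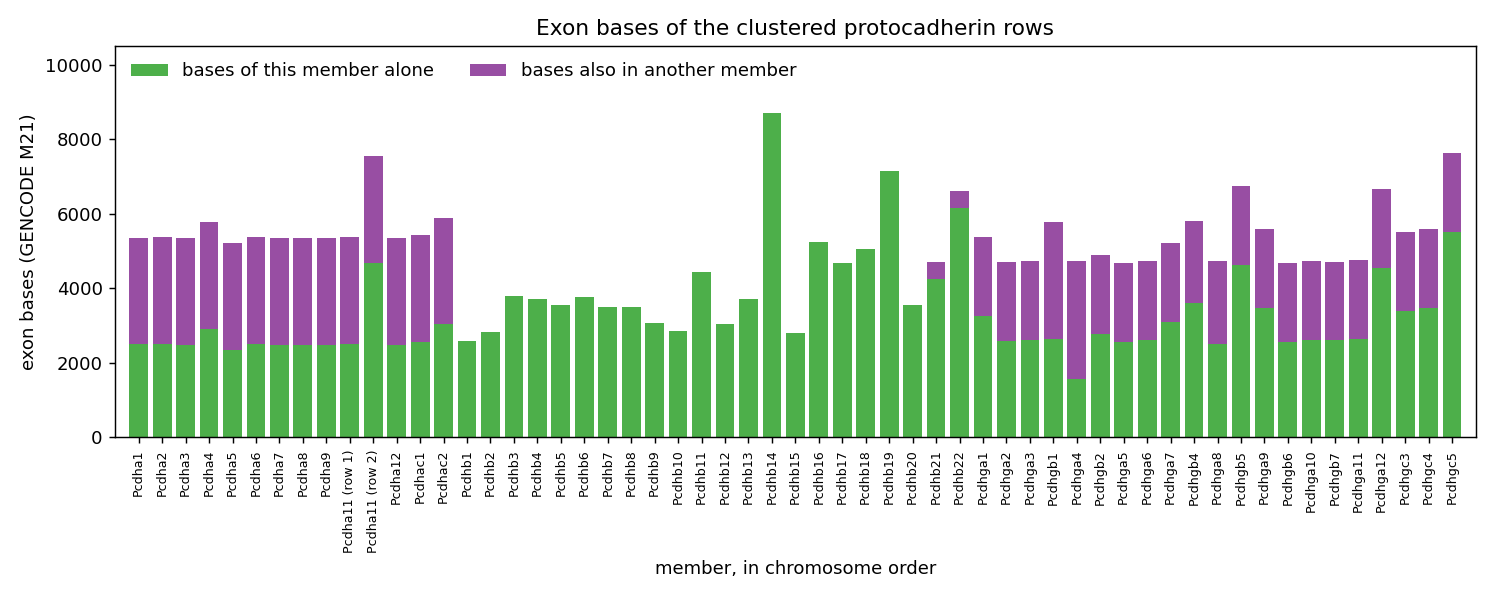
Exon bases of each of the 57 rows in chromosome order (bars, in bases), split into bases of that member alone (green) and bases that also belong to another member (purple). All alpha and gamma rows carry a purple part, of which 2860 bases are common to every alpha and 2116 to every gamma row, while beta rows carry almost none.

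**Figure D2:**
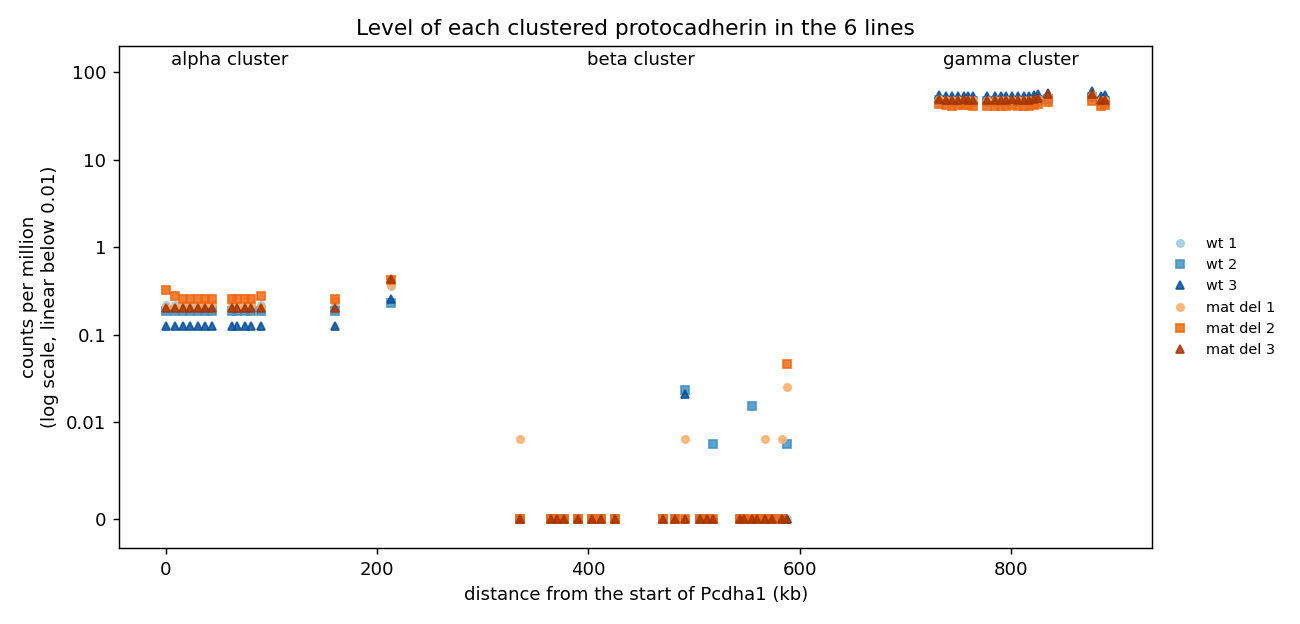
Level of each member (y axis, CPM on a log scale that is linear below 0.01) against the distance of its start from that of Pcdha1 (x axis, kb), with 1 point for each of the 6 lines. The alpha rows lie in a flat band near 0.2, the beta rows mostly at 0, and the gamma rows in a flat band near 50.

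The counts of the alpha and gamma rows showed this sharing directly. The rows of a cluster had almost the same count in the same line, as rows do when a read on the constant exons is counted for every member. In the alpha cluster 12 or 13 of the 14 rows lay within 10% of the lowest row of the line, and in the gamma cluster 19 or 20 of the 21 rows did. Members of these clusters were therefore not independent measurements, and their number says nothing about how many genes were transcribed. The lowest row of a cluster in a line was used as an upper limit on the counts of the constant exons. A member's counts above the lowest row, called its own counts, are a lower limit on the counts that fell outside those exons.

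The constant exons of the gamma cluster were the only part of the 3 clusters with a high level. Their upper limit, the lowest gamma row, was 44.6, 46.5 and 53.5 CPM in the wt lines and 47.8, 41.5 and 48.3 CPM in the mat del lines. The genotypes overlapped, at 48.2 ± 4.71 CPM in wt and 45.9 ± 3.81 CPM in mat del (SD, n = 3 lines each). Pcdhga6 was the lowest row in all 6 lines, from 1238 counts in wt 1 to 6056 counts in wt 2. Per kilobase of constant exon this was 22.2 CPM as a mean over the 6 lines, where the alpha cluster had 0.0695 CPM per kilobase (a ratio of 320 between the upper limits). In these bulk samples, fewer cells using a gene and less RNA of it per cell cannot be told apart.

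Among the gamma genes the C-type gene Pcdhgc3, which lies near the 3′ end of the cluster behind the A and B types, had the highest count in all 6 lines. Its level was 50.2, 52.1 and 61.4 CPM in wt and 54.5, 47.1 and 57.0 CPM in mat del lines. The groups overlapped, with a log2 fold change of −0.05 ± 0.12 (SE) and an adjusted p of 0.996. Most of this was shared, since its own counts made up 12.1% of its total.

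Pcdhgc3's own counts were 5.58, 5.61 and 7.91 CPM in the wt lines and 6.75, 5.61 and 8.71 CPM in the mat del lines. The lines numbered 3 were the highest of each genotype, and the means were 6.37 ± 1.34 CPM in wt and 7.02 ± 1.57 CPM in mat del (SD, n = 3). The difference did not pass an exact two-sided permutation test (p = 0.6, adjusted p = 0.9 over 5 members), which cannot give a p below 0.10 with 3 against 3 lines. Of the bases that only Pcdhgc3 has, 1559 lie opposite the antisense gene BC037039, itself at 3.35 to 5.46 CPM. How the counting treated strand is not given in the sources used here, so reads of that gene and of Pcdhgc3 cannot be told apart there.

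Pcdhga12, the last of the A-type genes, came next with own counts of 4.57, 3.58 and 4.85 CPM in wt and 4.27, 3.79 and 7.56 CPM in mat del lines. Only mat del 3 lay above the wt range, and the means were 4.33 ± 0.667 and 5.21 ± 2.06 CPM (SD, n = 3, exact permutation p = 0.8, adjusted p = 0.9). Its total level was 45.3 to 55.9 CPM, with a log2 fold change of −0.04 ± 0.12 (SE). In Pcdhga11 the own counts were 1.55, 1.37 and 3.11 CPM in wt and 1.41, 1.61 and 2.12 CPM in mat del lines (exact permutation p = 0.9, adjusted p = 0.9). The highest line was wt 3, and the genotypes overlapped. Of Pcdhga11's own bases 1381 of 2637 lie opposite the antisense gene Gm26672, which was at 1.14 to 2.79 CPM, and 422 of the 4545 own bases of Pcdhga12 do so too.

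Pcdhga1, the first gamma gene, had own counts of 1.34 to 1.476 CPM in wt and 1.31 to 1.67 CPM in mat del lines (exact permutation p = 0.4, adjusted p = 0.9). Of the B-type genes Pcdhgb7 had the most own counts, at 0.583 ± 0.151 CPM in wt and 0.648 ± 0.262 CPM in mat del (SD, n = 3, exact permutation p = 0.8, adjusted p = 0.9). Of Pcdhgb7's own bases 771 of 2594 lie opposite the antisense gene Gm26672. In these 5 members, which were tested because they had the most own counts, the genotypes overlapped. Among the other 16 gamma members, 4 had own counts whose lines did not overlap, 3 with mat del higher and 1 with mat del lower. These were Pcdhga4 (0.274 ± 0.0578 CPM in wt and 0.423 ± 0.106 CPM in mat del), Pcdhgb5 (0.182 ± 0.0063 and 0.348 ± 0.176 CPM), Pcdhga10 (0.129 ± 0.0211 and 0.242 ± 0.0661 CPM) and, in the other direction, Pcdhga2 (0.409 ± 0.0658 and 0.281 ± 0.0292 CPM, SD, n = 3). They were named after their values were seen, rest on 4 to 45 counts in a line, and were not tested, and the measure has no share over all genes to set beside them. All own bases of Pcdhga10 lie opposite Gm26672.

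Pcdhgc3, Pcdhga12, Pcdhga11 and Pcdhga1 were the 4 gamma members with a mean of more than 1 CPM of own counts, and together held 79.4% of the own counts of the cluster. The other 17 stood between 0 and 0.616 CPM. The other C-type genes were unlike Pcdhgc3, with own counts of 0.0716 CPM in Pcdhgc4 and 0.418 CPM in Pcdhgc5 as means over the 6 lines. Pcdhgb4 had 0.114 CPM. Per kilobase of own exon, the order was Pcdhgc3 at 1.98, Pcdhga12 at 1.05, Pcdhga11 at 0.706 and Pcdhga1 at 0.449 CPM per kilobase. Summed over all 21 members this was 5.57 CPM per kilobase. The constant exons thus held up to 3.99 times as many counts per kilobase as the members' own bases together. In Pcdhgb1, Pcdhga4, Pcdhgb4 and Pcdhga8, own counts may include counts on further shared bases, which the own bases leave out. Whether reads were spread unevenly along transcripts was not tested.

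**Figure D3:**
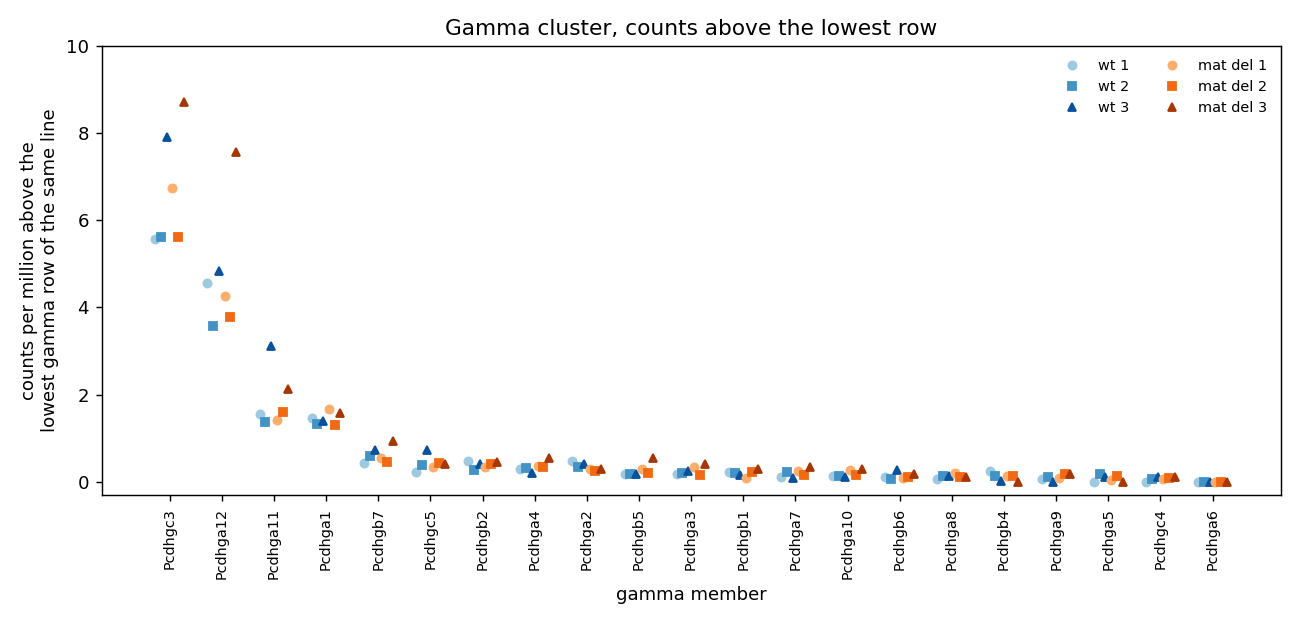
Counts (CPM) of each gamma member above the lowest gamma row of the same line (y axis), members ordered by their mean (x axis), with 1 point for each of the 6 lines. Pcdhgc3, Pcdhga12, Pcdhga11 and Pcdhga1 rise above 1, and wt (blue) and mat del (orange) points overlap in each of them.

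Some annotated read-through transcripts carry part of the constant gamma exons. Gm42416 joins the first exon of Pcdha4 to 446 of the 2116 constant gamma bases, and was at 10.6 to 13.2 CPM in wt and 9.66 to 14.1 CPM in mat del lines. It had 1446 counts in wt 2, where Pcdha4, which holds 2410 of its 2856 bases, had 24. If a read is counted for every gene it lies on, most counts of Gm42416 lie outside Pcdha4. Its level is therefore no measure of a joined transcript. Gm37013 and Gm37388 start at the first exons of Pcdha6 and Pcdha7 and reach 91 of the same constant bases. The counts of these 2 rows were identical in every line, from 49 in wt 1 to 285 in mat del 1, while the alpha rows whose first exons they carry had 6 and 27 counts there. Gm38182, with 628 constant gamma bases and a part of the first exon of Pcdhgc5, was at 14.4 to 19.0 CPM in wt and 13.1 to 20.1 CPM in mat del lines. The genotypes overlapped in all 4 rows, whose log2 fold changes lay between 0.03 and 0.25. Since these rows carry constant gamma bases, their counts may be the same reads as those of the gamma rows. They add no separate case.

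As whole rows, the 21 gamma members had log2 fold changes (mat del minus wt) of −0.08 to −0.04, with a median of −0.07 against −0.01 for all genes tested. Standard errors were 0.117 to 0.124 and unadjusted p-values 0.534 to 0.740. The members furthest from 0 were Pcdhga11 at −0.08, Pcdhga2 at −0.08 and Pcdhgb4 at −0.07. Pcdhgc4 and Pcdhgc5 were both at −0.07. In none of the 21 rows did the whole counts of the genotypes separate. The sign itself rested on single lines, because without wt 3 or without mat del 2 the fold changes of Pcdhgc3, Pcdhga12 and the other gamma members named here were 0.00 to 0.05.

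Alpha rows had few counts in either genotype. The lowest row of the cluster had 6, 24 and 6 counts in the wt lines and 25, 28 and 7 counts in the mat del lines, or 0.216, 0.184 and 0.126 CPM against 0.207, 0.258 and 0.200 CPM. The group values of 0.175 ± 0.0457 and 0.222 ± 0.0316 CPM (SD, n = 3) overlapped. Pcdha3 and 5 other alpha rows never exceeded this lowest count in any line.

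The exception was Pcdhac2, the last C-type gene of the cluster, which was the highest alpha row in all 6 lines. It had 10, 30 and 12 counts in the wt lines and 44, 46 and 15 counts in the mat del lines. This was 0.360, 0.230 and 0.252 CPM against 0.364, 0.424 and 0.430 CPM. All mat del lines lay above all wt lines, although mat del 1 exceeded wt 1 by less than what a single count is worth. The log2 fold change was 0.58 ± 0.35 (SE), with an unadjusted p of 0.139 and an adjusted p of 0.992.

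Pcdhac2 was the only member of the 35 tested whose lines did not overlap with mat del higher, where 4.7% of all genes tested had that pattern, and 0 members had the opposite one, against 4.68%. Which alpha rows were separated changed when wt 1 or mat del 3 was left out, and with no other single line. Whether library depth bears on this was not tested. Without wt 1, which has 27526359 counts, the lines of all 14 alpha rows were separated, with mat del higher, as were those of 7.86% of all genes tested. Without mat del 3 those of 4 rows were (Pcdha6, Pcdha7, Pcdhac1 and Pcdhac2), and those of 10.3% of all genes tested. The 14 rows share most of their reads and are not 14 separate cases.

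**Figure D4:**
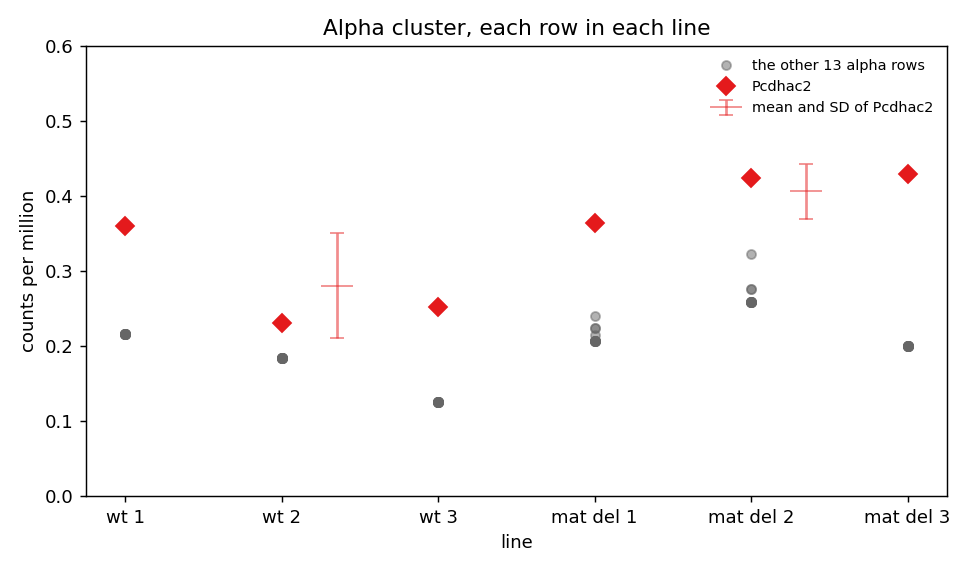
Level of each alpha row (y axis, CPM) in each of the 6 lines (x axis). Pcdhac2 (red diamonds, with the mean and SD of each genotype) lies above the other 13 rows (grey, mostly on top of each other) in every line, at 0.230 to 0.360 in wt and 0.364 to 0.430 in mat del lines.

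Pcdhac2's own counts were 4, 6 and 6 in wt and 19, 18 and 8 in mat del lines, or 0.105 ± 0.0521 CPM against 0.184 ± 0.0392 CPM (SD, n = 3). Of the gene's counts 38.9% were its own. The lines did not overlap, but as counts of the same row they add no second case. Own counts have no share over all genes to set beside them. Mat del 1 (0.157 CPM) exceeded wt 1 (0.144 CPM) by less than 1 count is worth in wt 1 (0.036 CPM). For every other alpha row the wt lines held no own count, at 0 of the 16 alpha own counts, while the mat del lines held 20 of 65. Those 20 were spread over 7 rows, with 7 in Pcdha1 (all in mat del 2) and 4 in Pcdhac1 (all in mat del 1). No own count of these rows was found in mat del 3. Pcdha6 and Pcdha7 had 2 each in mat del 1, and Pcdha2 and Pcdha12 had 2 each in mat del 2. Whether these were separate reads, and whether library depth bears on them, was not tested. With so few counts the values are given as a description.

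As whole rows the 14 alpha members had log2 fold changes of 0.37 to 0.58 (median 0.40), standard errors of 0.351 to 0.429 and unadjusted p-values of 0.139 to 0.394. After Pcdhac2 the largest were Pcdha1 at 0.51 and Pcdhac1 at 0.45, with Pcdha2 and Pcdha12 both at 0.41. Because of the constant exons these 14 values rest for the most part on the same reads. The name Pcdha11 stands on 2 rows, with starts at 37005203 and 37010712, and both behaved like the rest of the cluster.

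**Figure D5:**
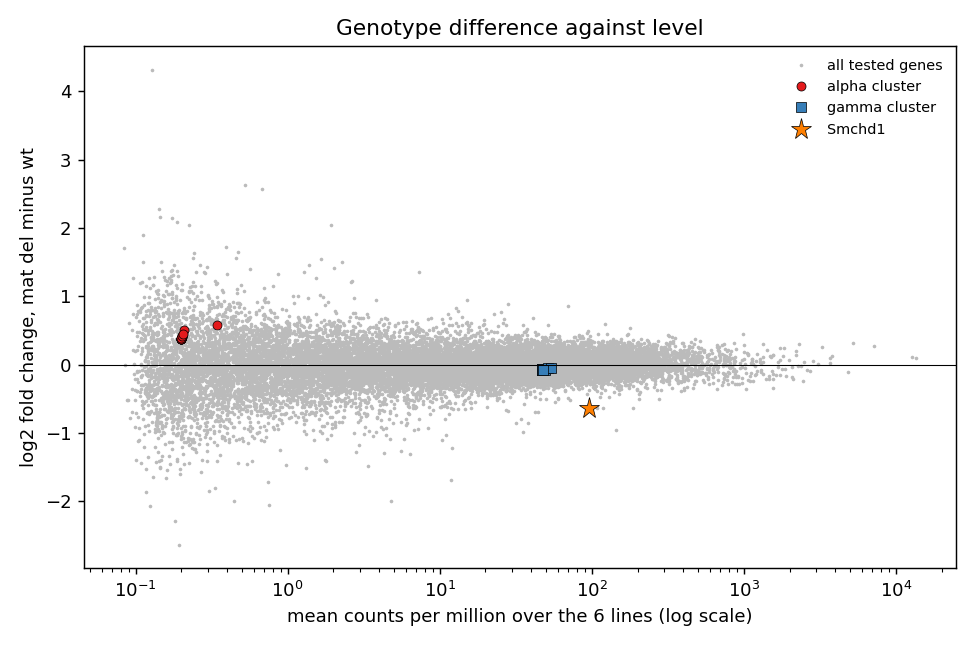
Log2 fold change (y axis, mat del minus wt) against mean level (x axis, CPM over the 6 lines, log scale) for the 17696 genes tested (grey), with alpha rows (red), gamma rows (blue) and Smchd1 (star). Alpha rows sit at 0.37 to 0.58 among low-level genes with a wide scatter, and gamma rows at −0.08 to −0.04.

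The beta genes, each encoded by a single exon of its own or nearly so, were at or near 0 in both genotypes. The 22 rows together had 0, 7 and 1 counts in the wt lines and 7, 5 and 0 counts in the mat del lines. No row had the counts needed to be tested. Of the 22 rows 15 had no count in any line, which allows a level of at most 0.00639 CPM over the 6 libraries (3 counts). This limit covers counting error only.

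The counts that were found fell on 7 beta genes. Pcdhb22, the last gene of the cluster, had 9 of the 20, with 1 in wt 2, 3 in mat del 1 and 5 in mat del 2. Pcdhb11 had 3 in wt 2, 1 in wt 3 and 1 in mat del 1, and Pcdhb17 had 2 in wt 2. Pcdhb1, Pcdhb14, Pcdhb19 and Pcdhb21 had 1 count each. Pooled over lines there were 8 counts in wt and 12 in mat del, a rate ratio of 1.17 (mat del over wt) with an exact 95% interval of 0.439 to 3.29 that covers counting error only. The ratio was 3.43 without wt 2, which holds 7 of the 8 wt counts, and 0.445 without Pcdhb22.

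Factors known to act at the clusters were read from the same fit. Of 27 such genes, 3 had an unadjusted p under 0.05 with mat del lower (Smchd1, Dnmt3b and Dnmt3l) and 1 with mat del higher (Tet2), where 1.17% and 1.07% of all genes tested did, and none passed the adjusted threshold. Smchd1 is in the list as the deleted gene. The lines did not overlap in 4 of the 27 with mat del higher and in 3 with mat del lower, against 4.7% and 4.68% of all genes tested. Dnmt3b, a DNA methyltransferase that methylates protocadherin promoters early in development, was at 40.1, 44.8 and 79.1 CPM in wt and 37.9, 28.7 and 34.5 CPM in mat del lines. The lines did not overlap, but wt 3 lay far above the rest, and the log2 fold change was −0.70 ± 0.25 (SE), with an unadjusted p of 0.0246 and an adjusted p of 0.992. Dnmt3l, the cofactor of the DNA methyltransferases, was at 38.8, 40.6 and 61.4 CPM against 34.1, 18.8 and 18.2 CPM, a log2 fold change of −0.98 ± 0.28 (unadjusted p = 0.00806, adjusted p = 0.992, edgeR). Tet2, which oxidises methylated cytosine, was at 78.7, 77.1 and 66.8 CPM against 88.0, 88.2 and 120.6 CPM, a log2 fold change of 0.41 ± 0.15 (unadjusted p = 0.0233, adjusted p = 0.992, edgeR). Without wt 3, which had the highest Dnmt3b and the lowest Tet2 level, the log2 fold change of Dnmt3b was −0.33, and 2 of the 27 genes (Smchd1 and Dnmt3l) had an unadjusted p under 0.05. Whether these levels bear on the protocadherins was not tested.

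None of the boundary and cohesin factors had an unadjusted p under 0.05. The largest log2 fold changes were those of core cohesin genes, 0.39 ± 0.20 for Smc3 (unadjusted p = 0.0835, adjusted p = 0.992, edgeR), 0.34 ± 0.21 for Smc1a and 0.27 ± 0.15 for Stag1, named after their values were seen. Smc3 was at 294.0 to 321.0 CPM in wt and 327.7, 332.2 and 540.3 CPM in mat del lines, without overlap. In Smc1a and Stag1 the genotypes overlapped. Smc1a was at 218.5 to 263.1 CPM in wt and 244.2, 245.3 and 418.9 CPM in mat del lines. Stag1 was at 116.5 to 128.7 CPM in wt and 121.2, 142.8 and 180.2 CPM in mat del lines. The log2 fold change was 0.13 ± 0.17 for Ctcf, which binds protocadherin promoters and enhancers, 0.21 ± 0.12 for the cohesin subunit Rad21, 0.17 ± 0.15 for the cohesin loader Nipbl, and 0.21 ± 0.12 for Wapl, which releases cohesin. Setdb1, a histone H3K9 methyltransferase, was at 0.06 ± 0.11, the zinc finger protein Wiz at 0.19 ± 0.10 and Lrif1, a partner of SMCHD1, at −0.23 ± 0.15. For Wapl and Wiz the lines did not overlap, with mat del 3 the highest line of each. Mat del 3 was also the highest line for Smc3, Smc1a, Stag1, Ctcf, Rad21 and Nipbl, but not for Stag2, Mau2 or Lrif1. Setdb1, Wiz and Lrif1 had no unadjusted p under 0.05 either.

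Neighbours on the chromosome and protocadherins outside the clusters gave no call either. Of 53 genes within 500 kb of the members, 40 were tested and 0 had an unadjusted p under 0.05. The 53 include the read-through rows and antisense genes such as BC037039 and Gm26672, which overlap exons of members. Pcdh1 and Pcdh12 are also among the non-clustered protocadherins. These neighbours are therefore not all separate from the clusters. The lines of the genotypes did not overlap in 5 of them, 3 with mat del higher and 2 with mat del lower, near the 4.7% and 4.68% of all genes tested. Between the beta and gamma clusters lie Taf7, a subunit of the general transcription factor TFIID, at 176.5 to 216.6 CPM, the mitochondrial carrier gene Slc25a2 at 0.168 to 0.315 CPM, 4930517L18Rik at 0.144 to 0.504 CPM, and 3222401L13Rik at 1.69 to 1.79 CPM in wt and 0.945 to 1.66 CPM in mat del lines. Of these only 3222401L13Rik had lines that did not overlap (log2 fold change −0.36 ± 0.26, unadjusted p = 0.211, adjusted p = 0.992, edgeR). Of 12 non-clustered protocadherins, 3 had enough counts to be tested. Pcdh19 was at 4.93 to 6.62 CPM, Pcdh1 at 0.360 to 1.29 CPM and Pcdh8 at 0 to 0.288 CPM, with log2 fold changes of 0.11 ± 0.17, −0.04 ± 0.43 and 0.27 ± 0.87.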

How the data were processed

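RNA was sequenced as poly(A) libraries from 3 wt and 3 mat del mESC lines. The study's methods name a TruSeq RNA kit and a stranded TruSeq mRNA kit, without saying which of them these libraries had. Per the study's methods and the submitters' notes, reads were trimmed with Trim Galore 0.4.4, mapped with HISAT2 2.0.5 to GRCm38.p6 and counted per gene in SeqMonk. The authors deposited raw counts per gene, without normalization, and how reads on several genes or on either strand were counted is not given in the sources used here. The authors' log2 RPKM tables hold no clustered protocadherin and were not used. The counts of the differentiation time course were read only as a range over its libraries, since the names of those columns are in doubt.

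The counts were tested with edgeR 4.0.16 in R 4.3.3 (TMM scaling, default expression filter, quasi-likelihood test, Benjamini-Hochberg adjustment at 0.05 over all genes tested). Of the 35591 genes, 17696 passed the filter, which kept all alpha and gamma and no beta members. The test was run on simulated counts whose changes were larger than any member's fold change here. That check does not bear on finding differences as small as those of the members. Replicates are separate lines, and no pair of them agreed within sampling noise. Own counts are a row's count minus the lowest count of its cluster in the same line. This measure was chosen after seeing the data, and the 5 members with most of them were each tested by an exact permutation test (two-sided). Exon bases came from GENCODE M21. Alternatives were DESeq2 1.42.0, edgeR's exact test, other scalings and filters, each line left out and a replicate block.

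The main fit and the permutation tests are unpaired, and the replicate block is an alternative. Whether the line numbers pair the samples is not settled. Deviations from the group means correlated at 0.283, 0.417 and 0.466 between lines of the same number. However, wt 1 correlated more with mat del 2 (0.408) than with mat del 1 (0.283). This check comes from the data alone, and the labels state no pairing.

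The members and lists were chosen with earlier results of these data known. Named were Smchd1, the C-type genes, the 5 highest members and the 3 largest fold changes of each cluster, members with an unadjusted p under 0.05 or separate lines, and set genes of each list plus any with an unadjusted p under 0.05. The read-through genes, the antisense genes, Smc3, Smc1a, Stag1 and the markers Tubb3, Nefl and Dcx were named after their values were seen. Python 3.11.15, numpy, pandas, scipy 1.17.1 and matplotlib were used for the rest.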

Additional observations from a re-analysis of the deposited data

Results flagged for a closer look

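The comparison above does not use the libraries of the differentiation time course. In most of them the alpha and beta levels lay above those of the wt lines in 2i + LIF. Per the study's methods they had single-end reads and the 2i + LIF libraries paired-end reads, so the levels are not like for like. The time course was read as 45 libraries without regard to genotype or day, with levels as CPM of the library total. The lowest alpha row exceeded the highest wt line (0.218) in 37 of the 45 libraries, with a median of 1.94 and a highest value of 8.49. The summed beta counts exceeded the highest wt line (0.0552) in 38 libraries, with a median of 0.919 and a highest value of 4.58, and 20 of the 22 beta genes had a count in at least 1 library.

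The lowest gamma row exceeded the highest wt line (52.4) in 19 of the 45 libraries, with a median of 43.2 and a range from 0 to 103.3. Own counts of Pcdhgc3 exceeded the highest wt line (7.75) in 27 libraries, with a median of 12.1 and a highest value of 66.9. The totals of these libraries range from 281284 to 103267407 counts, so in the smallest library a single count stands for a high CPM. No difference between genotypes or days was tested here.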

How the results depend on the processing

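No member passed the adjusted threshold or an unadjusted p of 0.05 under any alternative, including the replicate block (0 members at either threshold), which changed no other call of a member. The number of members whose lines did not overlap was 1 under the other scalings, ranged from 1 to 14 when a line was left out, and was 4 without both lines numbered 3 (an alternative chosen after seeing the data). Regulators at an unadjusted p under 0.05 numbered 4, and 2 to 6 when a line was left out. The log2 difference of the summed cluster level was 0.41 for alpha and 0.21 to 0.59 when a line was left out. It was 1.36 once the lowest row of the line was subtracted, a sum of 16 and 65 counts. For gamma it was −0.07, −0.11 to 0.02 when a line was left out, and 0.14 once the lowest row was subtracted. The beta read ratio was 1.17, 0.897 to 3.43 when a line was left out, and 0.445 without Pcdhb22, its highest member. For the beta sum, the mean of log2 values was not run, since most values are 0. The filter of at least 10 counts in every line left 22 members tested.

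Leaving out a line moved the log2 fold change of gamma rows across 0, within −0.10 to 0.05 for Pcdhgc3, −0.11 to 0.05 for Pcdhga12, −0.13 to 0.02 for Pcdhga11, −0.11 to 0.02 for Pcdhga1, and −0.12 to 0.01 for Pcdhgc4, Pcdhgc5, Pcdhga2, Pcdhgb7, Pcdhgb4 and Pcdhga6. Smchd1 passed the adjusted threshold (adjusted p = 0.0296, edgeR, log2 fold change −0.77) only without both lines numbered 3. Its range with a line left out was −0.78 to −0.52. Depth limits the alpha and beta clusters, where 3 counts stand for 0.023 to 0.108 CPM in a line.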
